A study of Drosophila melanogaster with 3 samples.

Results

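The genes described here were the small nuclear RNA (snRNA) genes of Drosophila melanogaster, chosen as every gene on the chromosome arms whose symbol begins with snRNA in the Ensembl BDGP6 annotation of the dm6 assembly. There were 32 such genes among 18164 annotated genes, at 21 loci, and none lay on arm 2R or arm 4. By RNA type there were 7 U5 genes, 6 U2, 5 U1, 3 U4 and 3 U6 genes, 2 7SK genes and 1 gene each for U7, U11, U12, U4atac, U6atac and LU. Of the 32, 28 encode RNAs of the spliceosome. U7, 7SKa, 7SKb and LU carry the same symbol prefix but are not among the spliceosomal types, so the set is wider than spliceosomal RNAs alone.

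Spliceosomal snRNAs are short non-coding RNAs that pair with the pre-mRNA and with each other. U1 recognises the 5′ splice site, U2 the branch point, and U4, U5 and U6 join as a tri-snRNP whose U6 takes part in catalysis, while U11, U12, U4atac and U6atac serve the minor spliceosome. Most snRNA genes are short RNA polymerase II units, whereas U6, U6atac and 7SK are made by RNA polymerase III. In flies both kinds share an upstream proximal sequence element (PSEA), which is bound by the complex of Pbp45, Pbp49 and Pbp95.

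The measurement was chromatin immunoprecipitation sequencing (ChIP-seq) for CG17359, with 1 group of 3 biological replicates. Each replicate was made of whole embryos aged 0 to 14 h from a transgenic fly line carrying CG17359 with green fluorescent protein (GFP) at its C terminus, and the immunoprecipitation used an antibody against GFP, although the antibody label names CG17359 itself. No source used here gives the promoter that drives the transgene, no list from flies without the tag was used, and whole embryos mix all tissues and many stages. The labels only name 1 shared experiment as a possible control for all 3 replicates, and do not state its content.

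The values were peak lists. Each replicate and the pooled replicates had a list of 30000 peaks, and a thresholded list (by its name the optimal set from an analysis of irreproducible discovery rate) held 7287 peaks, all of them also in the pooled list. The signal value of a peak is the authors' own and was used only to describe or rank peaks within its list. In the pooled list it ran from 51.5 to 8514 with a median of 104. The lists hold no read counts, so depth is unknown. A gene was counted as having a summit when a peak's summit lay within 500 bp of an annotated start, and positions are given from the start, negative upstream.

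The sequence upstream of the start is what members of this family share most visibly. The 60 bases from -80 to -21 are shown, in dm6 and on the strand of the gene, for the 8 genes with a thresholded summit, then for U1:95Cb and U2:34ABc, whose RNAs are copies of occupied genes, and for 7SKb, the exception. The capitals mark the letters ATTCNCAA, the start of the PSEA.
snRNA:U1:21D: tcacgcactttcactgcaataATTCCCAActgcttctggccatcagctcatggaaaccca
snRNA:U1:95Ca: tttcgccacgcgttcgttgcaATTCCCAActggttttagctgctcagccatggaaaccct
snRNA:U2:34ABb: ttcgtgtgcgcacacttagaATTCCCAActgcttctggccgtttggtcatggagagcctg
snRNA:U4:39B: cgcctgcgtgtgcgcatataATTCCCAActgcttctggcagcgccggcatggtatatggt
snRNA:U5:63BC: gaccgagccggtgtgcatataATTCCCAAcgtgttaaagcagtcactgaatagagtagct
snRNA:U6:96Ab: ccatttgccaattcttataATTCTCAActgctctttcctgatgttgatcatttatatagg
snRNA:U6:96Ac: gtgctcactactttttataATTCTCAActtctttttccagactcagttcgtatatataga
snRNA:7SKa: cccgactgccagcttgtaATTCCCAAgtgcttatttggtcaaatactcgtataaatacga
snRNA:U1:95Cb: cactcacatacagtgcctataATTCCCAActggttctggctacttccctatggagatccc
snRNA:U2:34ABc: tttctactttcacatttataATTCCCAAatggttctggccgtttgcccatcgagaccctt
snRNA:7SKb: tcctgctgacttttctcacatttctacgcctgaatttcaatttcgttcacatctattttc

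The letters ATTCNCAA, chosen after these windows had been read, occurred within 100 bp upstream and on the gene's own strand at 31 of 32 snRNA genes, with the first base between -65 and -56. The same window held them at 1.15% of the 23584 annotated starts on the arms, or 1.99% with both strands read. The shorter TTCCCAA, which overlaps ATTCNCAA, was found at 26 of 32 snRNA genes, with its first base between -61 and -55, and at 0.984% of all starts (1.82% on both strands). The TATAAA letters were on the gene's strand upstream of 7SKa and U6atac only, from -31 and -30, against 12.7% of all starts (5 of 32 snRNA genes and 17.6% of starts on either strand). TATATA, also read off the windows, was found upstream of all 3 U6 genes, with its first base between -31 and -28, and of no other snRNA gene, against 8.23% of all starts. So the PSEA letters were at 31 of the 32 genes whatever their peaks: all 8 genes with a thresholded summit had them, and so did 23 of the 24 without one. These are letter matches and not measured binding.

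A thresholded summit lay near the start of 8 of the 32 snRNA genes, which is 25.0% (exact binomial 95% interval 11.5 to 43.4%). The background was 20.5% of all genes on the arms, 23.9% of protein-coding genes and 9.22% of non-coding genes. The snRNA share was thus near that of protein-coding genes, not far from that of all genes, and above the non-coding share. The interval treats genes as independent, which copies and genes that share a peak are not. It therefore describes the count and tests no difference. The 8 genes were U1:21D, U1:95Ca, U2:34ABb, U4:39B, U5:63BC, U6:96Ab, U6:96Ac and 7SKa, so that each of the major spliceosomal RNA types had at least 1 gene in this set. U6:96Ab and U6:96Ac shared 1 peak.

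Most of these summits were far from a protein-coding start. Only 5 snRNA genes had a coding start within 1000 bp. Of the 27 others, 7 had a thresholded summit (25.9%, interval 11.1 to 46.3%), beside 6.70% of the 3029 non-coding genes equally far from a coding start. The coding start nearest to the 8 genes was between 489 bp (kek4, at U2:34ABb) and 30422 bp (Pli, at U1:95Ca) away, with a median of 5520.5 bp.

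In the pooled list 15 of 32 snRNA genes had a summit, which is 46.9% (interval 29.1 to 65.3%). The background was 42.7% of all genes, 46.8% of protein-coding genes, 29.0% of non-coding genes and 24.2% of non-coding genes over 1000 bp from a coding start. Among the 27 snRNA genes that far from a coding start the count was 11 (40.7%, interval 22.4 to 61.2%), an interval that holds the 24.2% background. In this longer and weaker list, as in the thresholded list, the share of those snRNA genes was above that of comparable non-coding genes. Neither difference was tested, and the intervals cannot decide it because some genes are copies or share a peak.

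The replicates gave nearly the same count when cut to equal length. Among the 7287 strongest peaks of each, replicates 1, 2 and 3 had summits at 8, 8 and 7 snRNA genes, or 24.0% ± 1.80 (SD, n = 3). The background was 20.9%, 21.3% and 20.4% of all genes, and 9.39%, 9.79% and 9.01% of non-coding genes. Replicates 1 and 2 gave the same 8 genes as the thresholded list, and replicate 3 gave all of them but U4:39B. The thresholded list was itself made from these replicates. The whole replicate lists spread more widely, with 15, 11 and 17 genes, or 44.8% ± 9.55 (SD, n = 3). The background there was 43.9%, 45.7% and 43.3% of all genes, and 29.3%, 31.1% and 28.9% of non-coding genes. In the whole lists the mean snRNA share was thus near that of all genes. The replicate 2 share was the lowest, at 34.4%, below that of all genes and within a few points of its non-coding background.

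Other small RNA genes had their own shares in the 2 lists. Of 290 tRNA genes, which are also RNA polymerase III units, 33 had a thresholded summit (11.4%) and 169 a pooled one (58.3%). Of 269 snoRNA genes, 22 had a thresholded summit (8.18%) and 80 a pooled one (29.7%). Thresholded summits were thus at a lower share of both families than of snRNA genes, while pooled summits were at a higher share of tRNA genes. The difference between families was not tested.

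**Figure D1:**
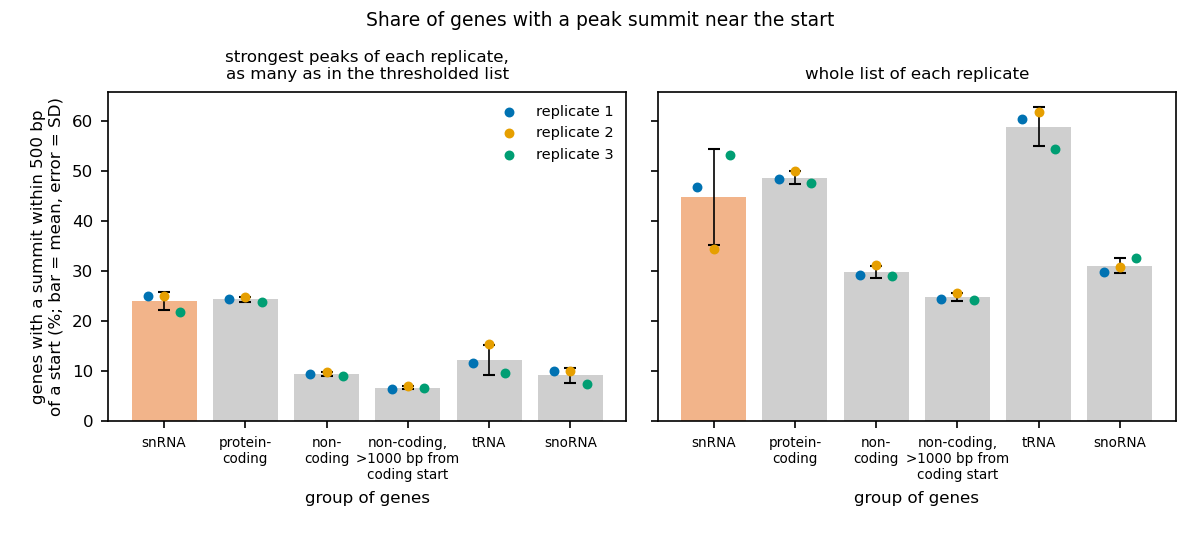
Percentage of genes with a peak summit within 500 bp of a start, for snRNA genes (orange) and comparison groups (grey), in the 7287 strongest peaks of each replicate (left) and in its whole list (right). Bars are means, error bars are SDs over 3 replicates and points are the replicates. On the left snRNA genes, at 24.0%, stand level with protein-coding genes, at 24.4%, and above non-coding genes, at 9.39%.

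U1, which pairs with the 5′ splice site, had 5 genes, of which 2 had thresholded summits, and both of those had a pair of them, 1 upstream of the start and 1 inside the gene near its 3′ end. At U1:21D (FBgn0003916, chr2L:901491-901654, minus strand) the downstream summit was at +158 bp in the pooled list with a signal value of 408 (rank 3424), and at +181, +162 and +158 bp in replicates 1, 2 and 3 with signal values of 82.1, 124 and 214. The upstream summit was at -51 bp with a value of 217 (rank 7081), and the replicates placed it at -27, -37 and -51 bp with values of 52.2, 89.9 and 104.6. In each replicate the downstream summit was the stronger.

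U1:95Ca (FBgn0004185, chr3R:23859467-23859630, minus strand), 30422 bp from the nearest coding start, had the same arrangement. Its downstream summit was at +137 bp with a value of 580 (rank 2168), and at +137, +153 and +117 bp in replicates 1, 2 and 3 with values of 147, 187 and 246. Its upstream summit was at -63 bp with a value of 232 (rank 6607), and at -64, -46 and -85 bp with values of 48.8, 117 and 37.8. The upstream peak varied in rank, from 3662 in replicate 2 to 10285 in replicate 1 and 20020 in replicate 3, so only replicate 2 had it among the strongest 7287.

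The other 3 U1 genes had weak summits. U1:95Cb (nearest coding start CG34355, 7278 bp), identical in RNA sequence to the 2 occupied copies, had pooled summits at +58 bp (70.9) and +263 bp (54.9), and only the second had a replicate summit within 100 bp, in replicate 1 (29.5). U1:82Eb had summits in replicate 1 at +125 bp (33.6) and in replicate 3 at +7 bp (46.0) and -334 bp (27.2). U1:95Cc had 1 summit, in replicate 3 at +1 bp, ranked 29640 of 30000. All 5 U1 genes were therefore in at least 1 list, but only U1:21D and U1:95Ca had summits in all 3 replicates.

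U2, which pairs with the branch point, had 6 genes, 1 with the strongest snRNA peak and 4 with no summit at all. U2:34ABb (FBgn0004192, chr2L:13215839-13216030, plus strand) had a summit at +155 bp with a pooled value of 841 (rank 1227). Replicates 1, 2 and 3 placed it at +158, +202 and +155 bp with values of 243, 230 and 331 and ranks of 1143, 1421 and 1438. These ranks were close together, and replicate 2 lay past the 3′ end of the gene.

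U2:34ABa, in the same cluster and 302 bp from the start of CG15482, had a pooled summit at +92 bp (118, rank 13234), seen at +118 bp in replicate 2 (51.3) and +91 bp in replicate 3 (44.1), while the nearest in replicate 1 was at +243 bp. The remaining 4 U2 genes, U2:34ABc, U2:38ABa, U2:38ABb and U2:14B, had no summit in any list. U2:34ABc has the same gene sequence as U2:34ABb, and its nearest pooled summit was at -15910 bp.

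U4 and U5 enter the spliceosome with U6 as the tri-snRNP. U4:39B (FBgn0003930, chr2L:21215036-21215178, minus strand), in an intron of Atg18b and 3366 bp from the start of CG8679, had a summit at +49 bp with a pooled value of 406 (rank 3452). It was at +56 bp in replicate 1 (111) and +50 bp in replicate 2 (142), and the nearest summit of replicate 3 was at -3756 bp. This was the only thresholded snRNA peak without a summit in all replicates. U4:38AB had a summit in replicate 3 alone, at +81 bp (29.7), and U4:25F had none.

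U5:63BC (FBgn0003938, chr3L:3090801-3090923, plus strand), 8823 bp from the start of PAN3, had the second strongest snRNA peak. Its summit was at +110 bp with a pooled value of 734 (rank 1517), and at +89, +80 and +110 bp in replicates 1, 2 and 3 with values of 213, 214 and 296. Ranks of 1439, 1582 and 1733 again lay close together. U5:35D, whose nearest coding start is that of Mtr4 at 581 bp, had pooled summits at -254 bp (85.1) and +314 bp (84.4), the second of which was nearer to the start of ND-B17 (290 bp) than to its own. Replicate 1 had summits at -252 bp (44.2), +296 bp (24.1) and +495 bp (63.4), and replicate 3 at +253 bp (28.6) and +452 bp (65.0). Replicate 2 had none within 500 bp, its nearest being at -507 bp. The strongest in replicates 1 and 3 were thus the farthest ones, which lay 109 and 152 bp from the start of ND-B17. U5:14B (nearest coding start CG12507, 12420 bp) had 1 at +155 bp (55.3) with none in a replicate within 100 bp. The other 4 U5 genes, U5:23D, U5:34A, U5:38ABa and U5:38ABb, had none in any list.

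U6, the catalytic RNA, is encoded by 3 genes with identical sequence that lie in 1 cluster and are made by RNA polymerase III. The thresholded peak chr3R:24556993-24557175 lay between U6:96Ab (FBgn0004189, chr3R:24556692-24556798, plus strand) and U6:96Ac (FBgn0004190, chr3R:24557215-24557321, plus strand), with its summit at +404 bp from the first and -119 bp from the second. Its pooled value was 416 (rank 3342), and the replicate values were 116, 168 and 132 at -117, -128 and -117 bp from U6:96Ac. Its position varied over the replicates by an SD of 6.35 bp, and it lay nearer to U6:96Ac than to U6:96Ab in every replicate. The nearest coding start, of Esyt2, was 8198 bp from U6:96Ac and 7675 bp from U6:96Ab. U6:96Ac had a further pooled summit at +87 bp (201, rank 7681), seen at +87, +71 and +130 bp in replicates 1, 2 and 3. U6:96Aa, in an intron of Esyt2, had a summit in replicate 3 alone, at -342 bp (35.4).

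None of the 4 genes of the minor spliceosome had a thresholded summit. U12 (nearest coding start Abl, 5887 bp) had a pooled summit at +228 bp (80.4), seen in replicate 1 at +235 bp (23.2) and replicate 2 at +216 bp (24.0). U11, 599 bp from the start of Fie, had one at +94 bp (61.2), seen in replicate 1 at +84 bp (19.4). In replicate 3 the nearest summits to U12 and U11 were at -6 and -41 bp, more than 100 bp from the pooled ones. U4atac had a summit in replicate 3 alone, at -206 bp (35.5), and U6atac had none. All of these values were below the pooled or replicate values of the thresholded snRNA peaks.

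Among the genes outside the spliceosome, 7SKa (FBgn0065099, chr3R:7474553-7474996, minus strand), whose RNA holds the elongation factor P-TEFb inactive, had a thresholded summit. It was at +217 bp with a pooled value of 341 (rank 4256), and at +217, +200 and +253 bp in replicates 1, 2 and 3 with values of 129, 141 and 102. The nearest coding start, of CG1142, was 1215 bp away. U7, which guides 3′ end formation of histone mRNAs, had a pooled summit at +63 bp (132, rank 11738), seen at +127, +72 and +47 bp in the replicates with values of 48.05, 31.2 and 48.8. It lies in an intron of Eip63E, 18369 bp from the nearest coding start, that of CG10359. 7SKb, which is 45.9% identical to 7SKa over the gene, and LU had no summit in any list, with the nearest pooled summit at +12580 and -4524 bp.

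**Figure D2:**
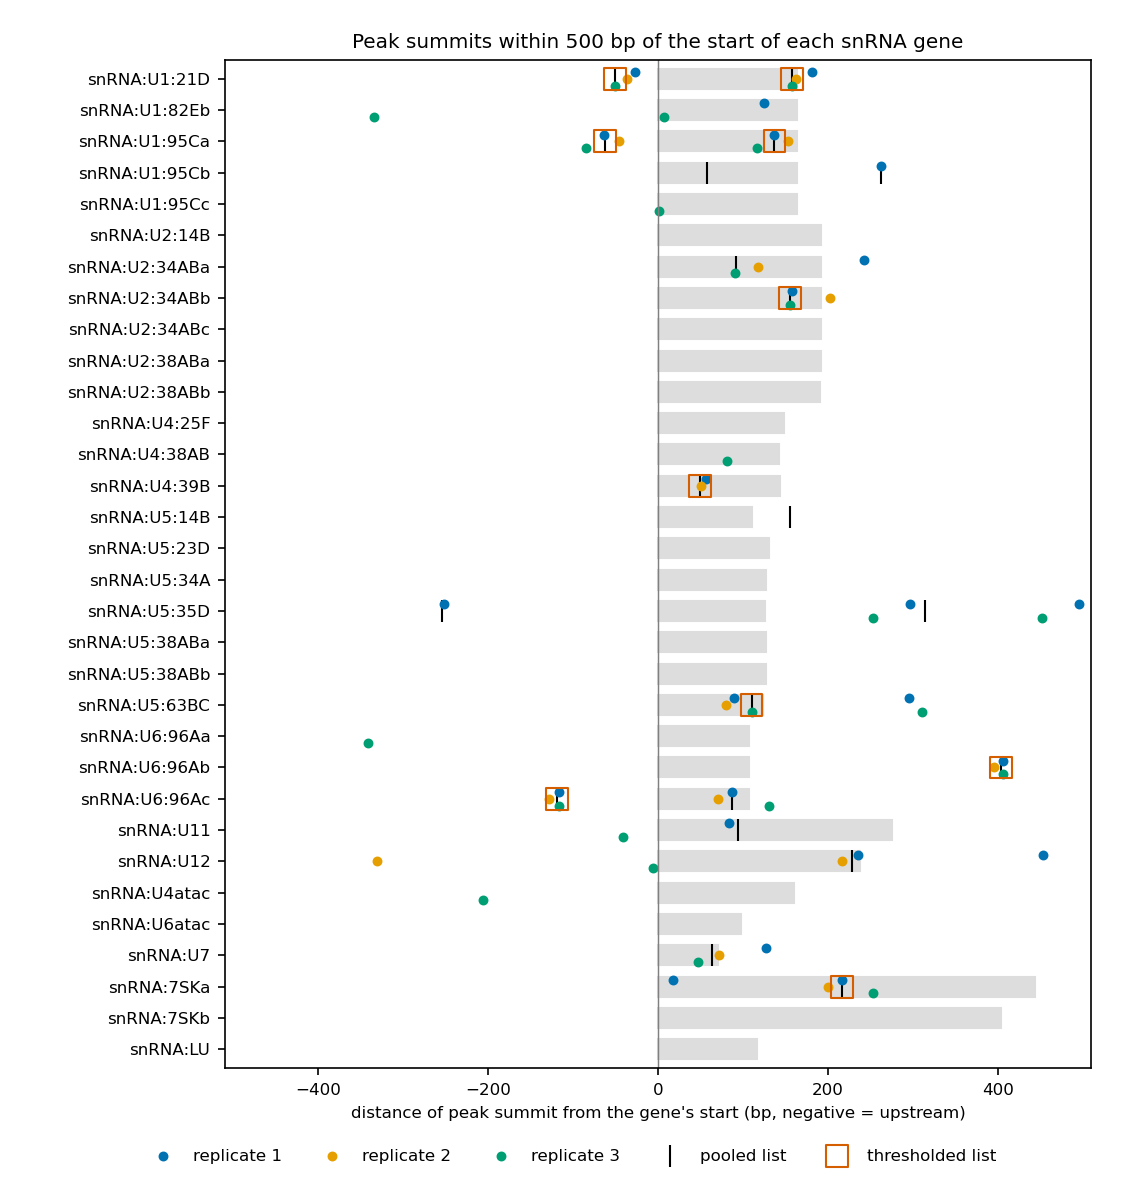
Position of every peak summit within 500 bp of the start of each snRNA gene (x axis, bp, negative upstream) for the 3 replicates (points), the pooled list (black ticks) and the thresholded list (orange squares), with grey bars for the genes. Most squares lie inside or at the 3′ end of a gene, U1:21D and U1:95Ca carry 2 each, and 12 rows are empty.

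The 8 genes had 9 separate thresholded peaks, with ranks from 1227 to 7081. For 8 of the 9 every replicate had a summit within 100 bp, and the SD of the position over replicates ran from 4.24 bp (U4:39B, over 2 replicates) to 27.1 bp (7SKa). The 10 other pooled summits were between 54.9 and 201 in signal value. Of those 10, 2 were seen in all replicates, 3 in 2 replicates, 3 in 1 and 2 in none. The thresholded list was made from these same replicates and, by its name, selected for reproducibility. Its agreement over replicates is thus partly set by how it was made.

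**Figure D3:**
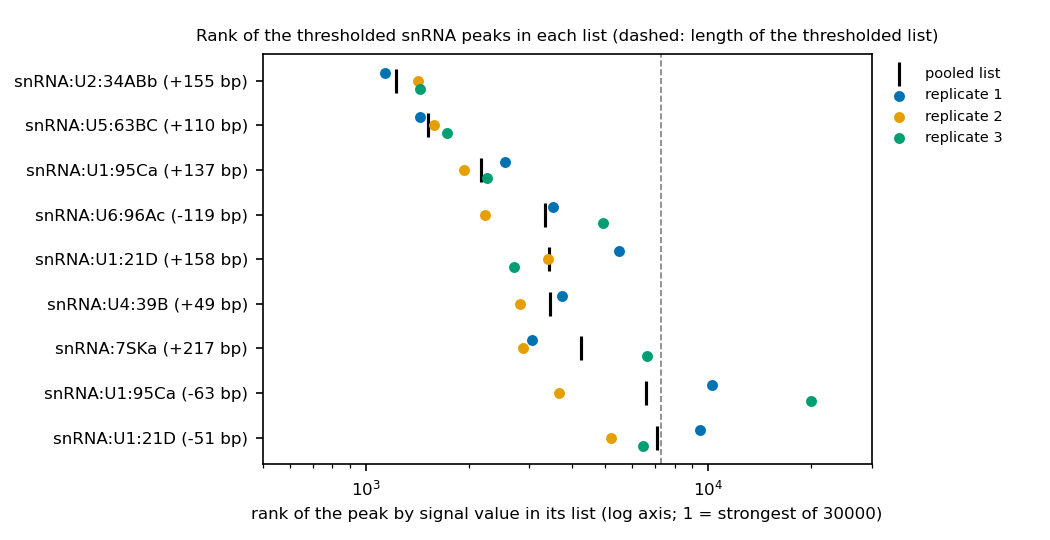
Rank by signal value (log axis, 1 is the strongest of 30000) of the 9 thresholded snRNA peaks in the pooled list (black ticks) and in each replicate (points), with the thresholded list's length, 7287, as a dashed line. U2:34ABb and U5:63BC lie between ranks 1143 and 1733 in every replicate, U4:39B lacks a replicate 3 point, and the upstream U1 peaks reach past the line.

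The summits sat downstream of the start more often than at coding genes. The nearest pooled summit was downstream at 12 of 15 snRNA genes (80%, median +92 bp), beside 30.6% of the 6528 coding genes with a pooled summit (median -70 bp) and 45.9% of the 1222 non-coding ones (median -33 bp). The share was 80%, 81.8% and 58.8% in replicates 1, 2 and 3, so replicate 3 was the nearest to other genes. In the thresholded list the nearest summit was downstream at 5 of 8 snRNA genes (62.5%) beside 19.0% of 3326 coding genes, and the strongest was downstream at 7 of 8. The shared U6 peak counts both ways there, as downstream of U6:96Ab (+404 bp) and upstream of U6:96Ac (-119 bp). In every list U6:96Ab counts as downstream only through this peak, which lies past its 3′ end. This is a description of few genes and was not tested.

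Counted as separate peaks, 6 of the 9 thresholded summits lay inside the snRNA gene, 3 upstream and 0 past its 3′ end. In the pooled list the split was 12, 4 and 3 of 19. The median distance from the nearest pooled summit to the start was 94 bp over 15 genes, and 98.7 bp ± 23.5 (SD, n = 3) over the replicates. At 0 of the 15 genes was that nearest summit nearer to a coding start than to the snRNA start, and of all 19 pooled summits 1 was, the second one of U5:35D. For 11 of the 15 genes, over 1000 bp from a coding start, the 500 bp window fixed this outcome in advance. Only the 4 genes with a coding start within 1000 bp could have counted.

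Where the summits fell is shown by the 61 bases around 5 of them, on the strand of the gene, with bases inside the snRNA gene in capitals. They were chosen as the downstream summits of both U1 genes, the 2 strongest snRNA peaks, and the U6 peak that covers no gene base near its summit.
snRNA:U1:21D, chr2L:901466-901526: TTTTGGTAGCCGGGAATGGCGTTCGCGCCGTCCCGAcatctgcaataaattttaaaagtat
snRNA:U1:95Ca, chr3R:23859463-23859523: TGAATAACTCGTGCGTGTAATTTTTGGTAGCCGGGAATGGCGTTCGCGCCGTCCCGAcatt
snRNA:U2:34ABb, chr2L:13215964-13216024: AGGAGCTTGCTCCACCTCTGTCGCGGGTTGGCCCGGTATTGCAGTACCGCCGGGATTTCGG
snRNA:U5:63BC, chr3L:3090881-3090941: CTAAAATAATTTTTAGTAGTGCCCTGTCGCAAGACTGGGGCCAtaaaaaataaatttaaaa
snRNA:U6:96Ac, chr3R:24557066-24557126: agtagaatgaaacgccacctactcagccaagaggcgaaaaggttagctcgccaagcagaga

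Both U1 summits and the U5:63BC summit had the end of the RNA within 30 bases, with 36, 57 and 43 of the 61 bases inside the gene. All 61 bases around the U2:34ABb summit were gene sequence. Around the 9 thresholded summits the median GC content over 200 bp was 44.5% (30 to 69.5%), above the 34.5% median over all thresholded summits. For pooled summits the medians were 42.0% and 38.5%. The part of base composition in the result was not tested.

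The PSEA letters were not where most summits were. Of the 10 pairs of a thresholded peak and a gene, 3 had a peak that covered the whole ATTCNCAA match: the upstream peaks of U1:21D and U1:95Ca, and the U6 peak read from U6:96Ac. The U5:63BC peak covered part of its match, beginning at -57 bp where the match runs from -59 to -52 bp. Cover depends on peak width, which ran from 99 bp (U2:34ABb) to 390 bp (U1:21D). The 2 upstream U1 summits were 8 and 4 bp from the first base of the match. The downstream summits of U1:21D, U1:95Ca and U2:34ABb were 217, 196 and 215 bp from it.

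Near-identical copies can share reads, and no source used here says how reads with several matches were treated. The share of 50-base words (50-mers) that occur once on the arms was 0% inside U1:21D, U1:95Ca, U2:34ABb, U6:96Ab and U6:96Ac, 44.6% inside U5:63BC, 57.4% inside U4:39B and 100% inside 7SKa. In the 250 bp on either side it was 100% at all 8. The U1 summit pairs therefore stood on either side of the stretch covered by no unique 50-mer, and its part in their position was not tested. The U2:34ABb summit, at +155 bp, lay at the edge of such a stretch, where 14% of the 50-mers covering +150 bp were unique. 7SKa, with a fully unique body, had its summit well inside the gene at +217 bp. The part of unique sequence in summit position was not tested at any of these genes.

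Unique sequence inside the gene ranged from 0 to 100% both among genes with a thresholded summit and among genes in no list. The median share of unique 50-mers inside the gene was 0% for the 8 genes with a thresholded summit, 49.4% for the 7 with a pooled summit only and 44.4% for the 12 in no list. Of those 12, LU, U4:25F, U6atac and 7SKb had fully unique bodies and flanks. U2:34ABc, U2:38ABa and U2:38ABb were the genes with a mostly repeated flank, at 13.9%, 0% and 0% unique over the 250 bp downstream, and all 3 were in no list. At those 3 genes the lack of a summit and the lack of unique sequence cannot be told apart.

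**Figure D4:**
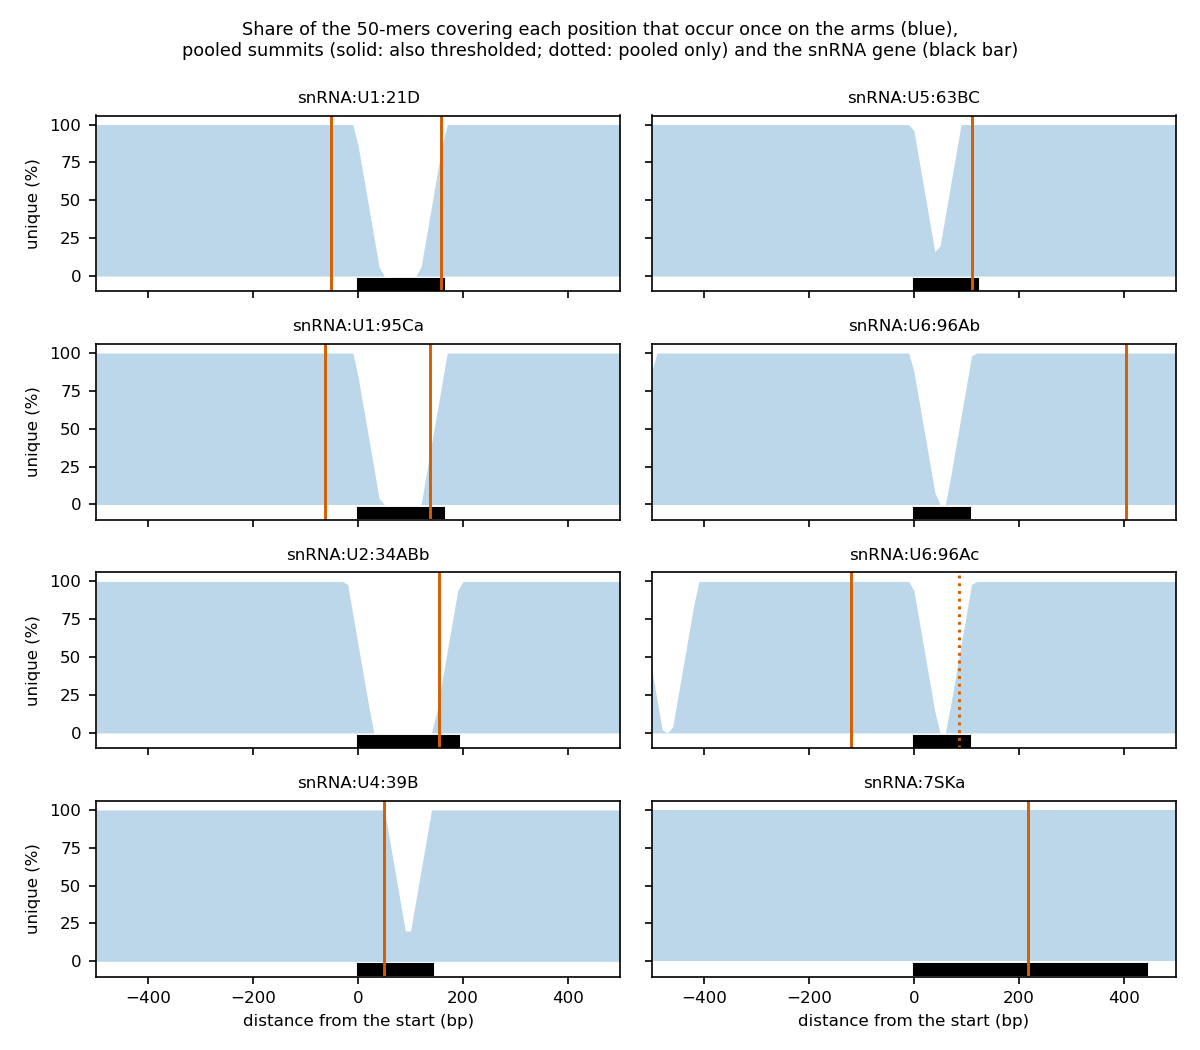
Share of the 50-mers covering each position that occur once on the arms (blue, %) against distance from the start (bp) for the 8 snRNA genes with a thresholded summit, with the gene as a black bar, summits in the thresholded list as solid lines and a pooled-only summit as a dotted line. The blue share drops to 0 inside the U1, U2 and U6 genes, with the U1 summits on both sides of the gap, while 7SKa is unique throughout.

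Copies of the same RNA differed in their peaks while differing little in gene sequence. U1 copies were 98.2 to 100% identical over the gene, U2 copies 98.4 to 100% and U6 copies 100%, but only 55.9 to 64.4%, 49.5 to 90.0% and 55.3 to 61.8% over the 100 bp upstream. U4 and U5 copies were less alike over the gene, at 73.2 to 94.4% and 78.2 to 96.1%. Genes of U1, U2 and U6 with and without a thresholded summit thus had near-identical RNA sequences. The 100 bp upstream were less alike. Identity there reached 90.0% between U2:38ABa and U2:14B, both in no list, and was 49.5 to 77.4% between U2:34ABb and the other U2 copies. The highest U1 value, 64.4%, was between U1:21D and U1:95Ca, both with a thresholded summit. Some U2 genes in no list also had a mostly repeated downstream flank, so not every copy had flanks of its own.

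By place in the genome, 16 snRNA genes lay in an intron of a coding gene and 16 outside coding genes. The intronic genes had 1 thresholded summit (U4:39B) and 5 with a pooled one, and the others 7 and 10. Of 18 genes in the 7 clusters (members within 10 kb), 3 had a thresholded and 6 a pooled summit, beside 5 and 9 of the 14 that stood alone. The 5 genes of the 38AB cluster in an intron of sick had no thresholded or pooled summit near a start. Of all non-coding genes, 9.22% had a thresholded and 29.0% a pooled summit. Shares for all intronic genes or all clustered genes are not given, so no difference by place or cluster is read from these counts. Type, place and cluster overlap in these few genes and cannot be told apart.

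In the thresholded and pooled lists the 500 bp limit left few genes close to it. Just inside was the shared U6 summit at +404 bp from U6:96Ab. Just outside were thresholded summits at +907 bp from U5:38ABb, +967 bp from U11 and +1008 bp from U6:96Aa, and pooled summits at -710 bp from U2:14B and -808 bp from U6:96Aa. Replicate lists had summits nearer to the limit. Inside it were +495 and +452 bp from U5:35D (replicates 1 and 3) and +453 bp from U12 (replicate 1). Outside it were -507 bp from U5:35D and -529 bp from U6:96Aa, both in replicate 2.

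Protein genes of the snRNA pathway were read from 6 lists, against 23.9% of coding genes with a thresholded summit and 46.8% with a pooled one. Some of the summits counted lay far from the start, such as -475 bp at Pbp95, -395 bp at IntS6 and -351 bp at SNRPG. Whether a summit was nearer to the start of another gene is not given for these lists. Of the 14 genes for snRNA promoter binding and transcription, 6 had a thresholded and 9 a pooled summit. The strongest were at Bdp1 (1605) and Brf (1296), subunits of the RNA polymerase III factor TFIIIB, and at TfIIA-L (939). Of the 14 subunits of Integrator, the complex that cleaves the 3′ end of snRNAs made by RNA polymerase II, 7 had a thresholded and 11 a pooled summit, led by IntS6 (933), IntS9 (627) and IntS11 (589), the last being its endonuclease.

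Sm and LSm proteins form ring complexes on RNAs, among them the Sm ring on most spliceosomal snRNAs. Of the 13 such genes matched, 3 had a thresholded (23.1%) and 8 a pooled summit (61.5%). The thresholded ones were SNRPG (572) and SmD3 (416), of the Sm ring, and LSm1 (490), of the LSm ring that acts in cytoplasmic mRNA decay. Of 15 genes for snRNP assembly, export and the cap, 3 and 7 had one, with vls (1404), Cbp20 (497) and Smn (257) in the thresholded list. Those shares were 20% and 46.7%. In the thresholded list both lists were thus near the coding background or a little below it, while in the pooled list the Sm and LSm share was above it and the assembly share level with it.

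Of 19 snRNP protein genes, 7 had a thresholded and 12 a pooled summit, led by U2af50 (1419), snRNP-U1-C (750) and Prp31 (454). Of the 5 genes of the 7SK snRNP, 3 had both, namely bin3 (1457), which caps 7SK, Hexim (599), which inhibits P-TEFb, and CycT (247), its cyclin. Over all lists 29 of 80 genes (36.2%) had a thresholded and 50 (62.5%) a pooled summit. The lists were chosen with earlier results known, and no test of them was made.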

How the data were processed

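Peak lists for 3 ChIP-seq replicates of GFP-tagged CG17359 embryos were used, with 1 pooled and 1 thresholded list. Per the labels the assembly is dm6. The authors deposited narrowPeak files. The signal (column 7) and the summit position within each peak are theirs, as deposited. The sources used here name no peak caller, aligner or IDR cutoff, and none says how reads with several matches were treated.

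The members and lists were chosen with earlier results of these data known. Gene starts came from Ensembl release 115 (BDGP6.54) and sequence from the RefSeq Release 6 genome. Summits within 500 bp of any annotated start were counted. Sets were described by counts, exact binomial intervals at 95% confidence (counting of genes only) and SDs over replicates, with no test. For equal lengths each replicate was cut to its 7287 strongest peaks. A replicate summit within 100 bp of the pooled one counted as the same. Unique 50-mers were counted on both strands of the arms. Identity was taken from global alignments. Counting code was tested on simulated data.

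Named were all snRNA genes, with replicate values for those with thresholded or pooled summits and their nearest coding genes, up to 3 members per pathway list with the strongest thresholded peaks, and the genes of motif counts of 5 or fewer. Of 84 pathway names, 80 were matched and 3 of those by an older name. SmG was read as SNRPG and HEXIM as Hexim. Alternatives were windows of 250 and 1000 bp, stronger or longer lists, overlap in place of summits, unique windows, and each replicate left out. Python 3.11.15, pandas 2.3.3, NumPy 2.4.6, SciPy 1.17.1, Biopython 1.88 and matplotlib 3.10.9 were used.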

Additional observations from a re-analysis of the deposited data

How the results depend on the processing

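The count of 8 snRNA genes with a thresholded summit was 7 with a 250 bp window, 10 with 1000 bp, 7 when the weaker 50% of the list was left out, 10 with 2 times as many pooled peaks, and 7 with shared summits counted once. It was 8 by any overlap and 8 of the 31 genes with a mostly unique window. With a replicate left out it was 7 to 8, counted as genes with a summit among the 7287 strongest peaks of both other replicates. A wider window or a longer list admits more summits by construction. Background shares at these other settings are not given, here or for the pooled list, so these counts cannot be set beside other genes. The pooled count of 15 was 13 and 18 with the narrower and wider windows and 10 to 13 with a replicate left out, which asks for a summit in both other replicates. The median distance to the start, 94 bp, was 132.5 bp with a 1000 bp window, which admits farther summits by construction, and 137 bp when the strongest summit was taken in place of the nearest. It was 92 bp with 250 bp. With a replicate left out, the mean of the medians of the other 2 replicate lists was 85.5 to 108 bp, and no pooled list was made again. No paired analysis was possible because there was 1 group. Depth is unknown, 32 genes give wide intervals, and replicate 3 lacks the U4:39B peak.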

Other observations

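The letters CAACTGCT, which overlap the end of ATTCNCAA and were chosen after the upstream windows and the peaks had been seen, occurred on the gene's strand within 100 bp upstream of 6 snRNA genes: U1:21D, U2:34ABa, U2:34ABb, U4:39B, U7 and U6:96Ab. Of these, 4 had a thresholded and all 6 a pooled summit, beside 4 and 9 of the other 26 snRNA genes. The same letters were in 0.297% of all start windows on the gene's strand and 0.509% on either strand. The count was picked from many possible words in few genes, so it is given as a value and was not tested.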
